A study of Mus musculus with 72 samples.

Results

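MITF binding was measured by chromatin immunoprecipitation and sequencing (ChIP-seq) in oligodendrocyte-lineage nuclei of mouse brain, and its signal was read against sonicated input chromatin of the same genotype. The nuclei came from C57BL/6 mice that were WT or SgshKO and were sorted as DAPI+ nuclei positive for OLIG2 and negative for PU.1 and NEUN. SgshKO mice lack sulfamidase, the lysosomal enzyme that is missing in Sanfilippo syndrome type A and that removes sulfate groups from heparan sulfate. Of the 72 samples of the study, 8 were used for MITF over input: 2 libraries each of WT MITF, SgshKO MITF, WT input and SgshKO input. The deposited table holds the 2 libraries of each group merged into 1 pool, so no spread between replicates could be computed and all sizes of MITF signal are given without a test. The labels do not say whether the merged libraries came from separate animals, and they give no age for the factor libraries. The 8 H3K27 acetylation libraries of the sorted nuclei used beside them were 2 each of WT and SgshKO at 4 and at 8 months. OLIG2 is present through the whole lineage, so the sorted nuclei can hold precursors as well as myelinating cells.

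The measured regions were 82577 accessible windows of 200 bp in these nuclei. A window was called MITF-bound where MITF was at least 2-fold over input as the mean of both genotypes, on the log2 scale with a pseudocount of 1 tag per 10M. The unit tags per 10M is the number of sequenced tags in a window, scaled to a library total of 10000000. By that rule 41315 windows were bound, which is 50.0% of all windows. A bound window is therefore a common state among accessible regions, and the counts below are set beside this share.

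MITF, TFEB, TFE3 and TFEC form 1 family of basic helix-loop-helix leucine zipper factors that bind DNA as dimers at E-boxes of the letters CACGTG, often with a T before and an A after. When nutrients are plentiful the lysosomal kinase complex mTORC1, working with the Rag GTPases and folliculin, holds TFEB, TFE3 and the longer MITF isoforms in the cytoplasm. On starvation or lysosomal damage they move to the nucleus and bind promoters of lysosomal and autophagy genes that carry the extended CLEAR motif. MITF is best known from melanocytes, where it drives pigment genes, whereas oligodendrocytes are the cells that make myelin in the brain.

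The promoter sequences in the bound windows of 9 genes show how MITF signal and the E-box were arranged. They were chosen for their role in the heparan sulfate pathway, in the lysosome, in mTORC1 control or in autophagy, and to set promoters with the motif beside promoters without it. By that choice the E-box is more common here than among windows whose whole sequence was at hand, of which 8.43% held it. Of the lysosomal promoter windows with whole sequence 4 of 22 held it. Each is the part of the window upstream of the RefSeq transcription start (GRCm38.p6, the mm10 build of the files), written 5′ to 3′ on the gene's strand, with CACGTG in capitals. Naglu encodes the enzyme that acts on heparan sulfate after sulfamidase and another enzyme of the pathway have done so, and its sequence is chr11:101069920-101070093 on the plus strand. Sgsh, the gene removed in SgshKO mice, is shown from chr11:119355511-119355620 on the minus strand. Ctsd encodes the protease cathepsin D (chr7:142387893-142388077, minus). Mcoln1 encodes the lysosomal calcium channel TRPML1 (chr8:3500339-3500518, plus) and Lamp1 a main protein of the lysosomal membrane (chr8:13159077-13159160, plus). Rragc encodes a Rag GTPase (chr4:123917282-123917432, plus) and Fnip1 a partner of folliculin (chr11:54437997-54438178, plus). Map1lc3b encodes the autophagosome protein LC3B (chr8:121590280-121590437, plus), and Atg2a encodes a lipid transfer protein of the growing autophagosome (chr19:6241520-6241667, plus).
Naglu: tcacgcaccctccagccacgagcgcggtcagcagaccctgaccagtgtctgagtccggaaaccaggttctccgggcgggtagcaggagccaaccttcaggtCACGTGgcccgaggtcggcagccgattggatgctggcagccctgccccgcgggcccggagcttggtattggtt
Sgsh: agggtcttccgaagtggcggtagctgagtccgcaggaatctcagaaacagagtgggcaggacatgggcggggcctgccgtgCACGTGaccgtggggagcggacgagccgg
Ctsd: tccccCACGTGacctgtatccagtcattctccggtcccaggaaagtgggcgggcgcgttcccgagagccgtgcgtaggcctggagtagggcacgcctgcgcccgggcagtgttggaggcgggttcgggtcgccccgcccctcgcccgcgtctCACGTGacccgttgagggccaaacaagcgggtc
Mcoln1: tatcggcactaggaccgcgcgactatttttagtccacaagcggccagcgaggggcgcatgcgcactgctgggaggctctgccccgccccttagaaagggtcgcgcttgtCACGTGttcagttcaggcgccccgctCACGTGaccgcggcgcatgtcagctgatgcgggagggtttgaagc
Lamp1: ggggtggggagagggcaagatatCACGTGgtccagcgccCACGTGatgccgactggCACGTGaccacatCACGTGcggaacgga
Rragc: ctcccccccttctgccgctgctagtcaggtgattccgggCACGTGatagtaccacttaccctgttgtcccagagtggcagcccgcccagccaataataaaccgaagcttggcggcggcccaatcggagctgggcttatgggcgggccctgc
Fnip1: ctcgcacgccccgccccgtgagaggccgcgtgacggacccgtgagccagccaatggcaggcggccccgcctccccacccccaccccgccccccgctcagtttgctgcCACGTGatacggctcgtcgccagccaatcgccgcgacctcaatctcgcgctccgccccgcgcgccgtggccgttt
Map1lc3b: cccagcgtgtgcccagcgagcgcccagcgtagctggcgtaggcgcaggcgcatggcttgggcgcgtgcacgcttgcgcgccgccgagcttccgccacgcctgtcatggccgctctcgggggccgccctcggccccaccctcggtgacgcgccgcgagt
Atg2a: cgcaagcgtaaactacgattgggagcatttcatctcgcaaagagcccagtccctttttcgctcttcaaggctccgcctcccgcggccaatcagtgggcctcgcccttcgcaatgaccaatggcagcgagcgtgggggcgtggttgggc
The E-box began at position -73 in Naglu, -112 in Rragc, -75 in Fnip1 and -29 in Sgsh, counted from -1 at the base before the start. Mcoln1 and Ctsd held 2 E-boxes each and Lamp1 held 4 in the stretch shown, whereas the Map1lc3b and Atg2a stretches held none.

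The MITF pools of the genotypes differed in depth and in enrichment, and this touches every comparison between them. The WT MITF pool held 36860770 tags, of which 6.35% lay in the windows, or 2.07 times the share of WT input. The SgshKO MITF pool held 25778117 tags, of which 18.5% lay in the windows, or 5.76 times the share of SgshKO input. The TFEB and TFE3 pools had 12.9% to 24.8% of their tags in windows. WT MITF thus had the lowest share in windows of all 6 factor pools. Across all windows its signal had Spearman correlations of 0.449 to 0.490 with the other 5 factor columns, whereas SgshKO MITF reached 0.718 to 0.767 with the TFEB and TFE3 columns. These correlations are across 82577 windows that share accessibility and base composition, and windows are not replicates. Of the 1000 windows with the most signal in a column, WT MITF shared 420 to 446 with each other factor column, and SgshKO MITF shared 767 to 817 with the TFEB and TFE3 columns.

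The SgshKO input was thin. It held 20775566 tags against 52353915 for WT input, and 48.9% of the windows had no SgshKO input tag (40398), against 13236 windows with no WT input tag. Where input is 0 the pseudocount sets the denominator. In SgshKO, MITF was at least 2-fold over input in 81.7% of windows with empty input and in 44.0% of the others, and in WT these shares were 61.0% and 30.9%. The markers fixed for the sorted cells had the pattern of the lineage: promoter windows were present for 10 of 10 oligodendrocyte markers, 5 of 5 precursor markers, 3 of 5 neuronal, 1 of 5 astrocyte, 0 of 5 microglial and 0 of 3 endothelial markers. Summed over the promoters present, H3K27 acetylation was 2191 to 3146 tags per 10M for oligodendrocyte markers over the 8 libraries, 144 to 331 for precursor markers, 65.6 to 98.9 for the astrocyte marker and 10.5 to 30.1 for neuronal markers.

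**Figure D1:**
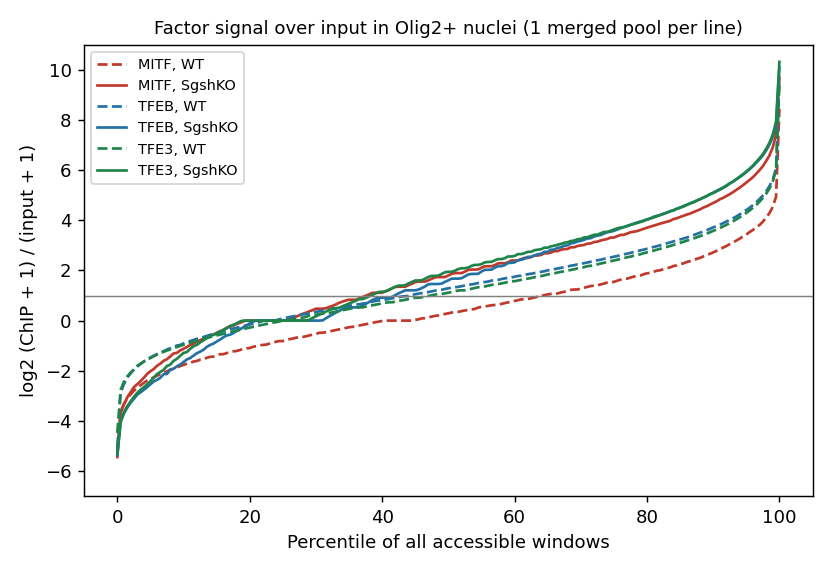
Log2 of ChIP over input (vertical axis, pseudocount 1 tag per 10M) against the percentile of the 82577 windows (horizontal axis), with 1 line per merged pool, dashed for WT and solid for SgshKO, and a grey line at 2-fold. The WT MITF line lies lowest through the middle and upper part of the range, with a median of 0.29, and the SgshKO MITF line runs with the TFEB and TFE3 lines of that genotype, with a median of 1.80.

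MITF was over input at more windows in SgshKO than in WT. In WT, 29483 windows (35.7%) were at least 2-fold over input, and in SgshKO 51555 (62.4%) were. In both genotypes at once 21215 windows passed, or 25.7% of all, while 8268 passed in WT alone, 30340 in SgshKO alone and 22754 in neither. At least 8-fold over input were 6501 windows in WT and 24467 in SgshKO. Neither TFEB nor TFE3 bound 47.9% of the windows that passed in WT alone, against 31.9% of all windows. This share was 18.8% of those that passed in SgshKO alone, 4.44% in both and 69.2% in neither. The TFEB and TFE3 calls use the same inputs as these groups, so part of the differences is fixed by them. The WT MITF pool had 6.35% of its tags in windows and the SgshKO MITF pool had 18.5%. SgshKO input was empty in 48.9% of windows. The part of these pool differences in the higher SgshKO counts was not tested. Whether more nuclei were bound or each nucleus held more MITF also cannot be told apart in bulk chromatin. The rule has a threshold, and signal beside it was low: the 1000 windows within 0.05 log2 units above it had median MITF of 2.71 tags per 10M in WT and 6.59 in SgshKO, and the 972 as close below it had 2.44 and 7.18.

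**Figure D2:**
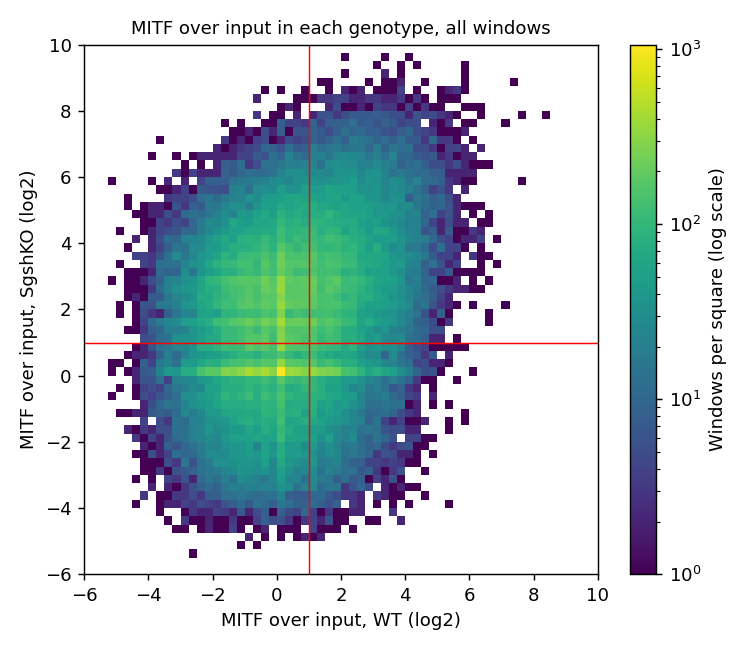
Log2 MITF over input in SgshKO (vertical axis) against WT (horizontal axis) for all 82577 windows, with colour for the number of windows per square on a log scale and red lines at 2-fold. More windows lie in the upper left corner (30340, past 2-fold in SgshKO alone) than in the lower right (8268, past 2-fold in WT alone), and the band at 0 on the vertical axis includes windows with no tag in either SgshKO column.

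MITF-bound windows lay near promoters more often than the other accessible windows, but most were distal. Of the bound windows, 29.3% lay within 1 kb of a transcription start, 44.1% were in introns and 24.4% were intergenic by the authors' annotation, and of all windows 24.4% lay within 1 kb of a start. The share near a start was not highest where MITF was strongest. It was 19.4% of windows below 2-fold, 27.5% from 2 to 4-fold, 31.6% from 4 to 8-fold and 32.4% from 8 to 16-fold. It then was 27.2% of the 2614 windows from 16 to 32-fold and 172 of the 905 windows at 32-fold or more. At these 905 windows, 41.9% were intronic and 35.4% were intergenic.

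Windows with more MITF also had more H3K27 acetylation, a mark of active promoters and enhancers. Below 2-fold the median acetylation ranged from 14.2 to 16.2 tags per 10M over the 8 H3K27ac libraries, from 8 to 16-fold it ranged from 38.9 to 42.6, and at 32-fold or more from 63.2 to 83.5. The order of the MITF classes held in each of the 8 libraries. These values describe windows that share accessibility, and its part in the relation was not tested.

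**Figure D3:**
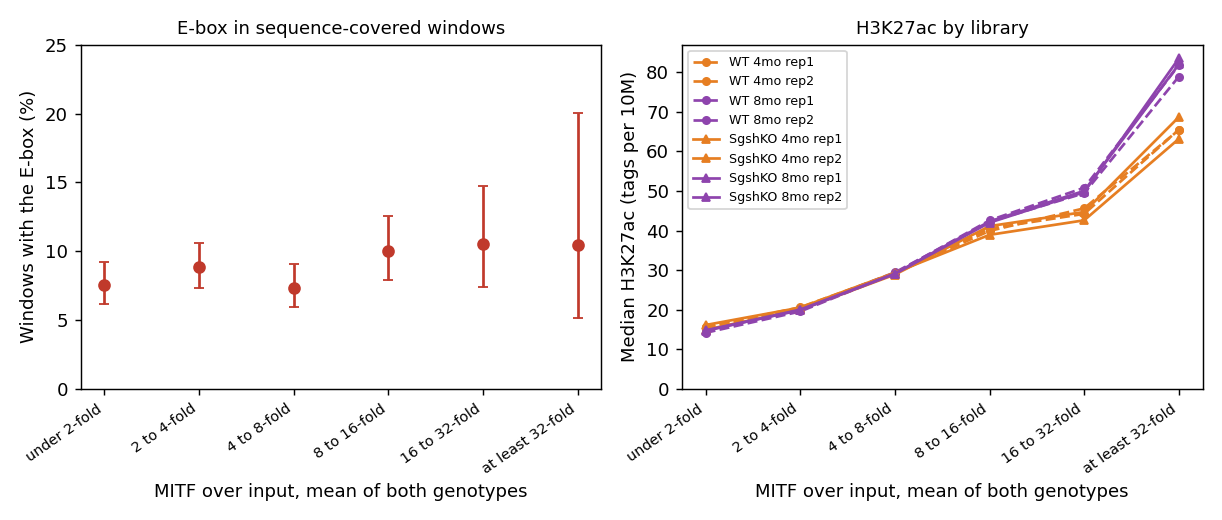
Left, the percent of windows with the CACGTG E-box (points, with 95% Wilson intervals of counting error) by class of mean MITF over input, in the 4448 windows whose whole sequence was at hand. Right, median H3K27ac (tags per 10M) of all windows in each class, with 1 line per library. The E-box share lies between 7.37% and 10.5%, and acetylation is higher in each stronger class in every library.

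The 10 windows with the highest MITF over input, under a minimum of 30 MITF tags in each genotype, were all distal or intronic, and none lay within 1 kb of a start. The first lay in intron 1 of 8 of Hivep3, a zinc finger regulator of transcription (chr4:119937843-119938043). MITF there was 347 tags per 10M in WT (1279 tags, exact Poisson 95% interval 328 to 367) and 1110 in SgshKO (2861 tags, 1070 to 1151), and input was 0 and 3.37. These intervals cover counting error only and are too narrow for clumped ChIP tags. TFEB at the same window was 802 in WT and 1698 in SgshKO, and TFE3 was 746 and 1850. All 3 factors were therefore high at Hivep3, and MITF was the lowest of them in both genotypes.

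The other 9 of these windows had the same arrangement of joint binding. A window in intron 1 of 14 of Rgs14, a regulator of G protein signalling, had MITF of 344 in WT and 668 in SgshKO, and a window in intron 2 of 2 of Atoh8, a helix-loop-helix factor, had 182 and 233. A window in intron 8 of 19 of Afap1, an adaptor on actin filaments, had 258 and 463. Intergenic windows nearest to Rps24, Slco3a1 and Tnfsf11 had WT MITF of 164, 142 and 136, and SgshKO MITF of 454, 199 and 517. At Pacs2, whose protein sorts membrane proteins, an intergenic window at -1441 bp from the start had MITF of 390 and 398, nearly the same by library totals and lower in SgshKO by a log2 difference of -1.28 under TMM. The TMM differences at Rgs14, Atoh8, Slco3a1 and Afap1 were -0.35, -0.95, -0.82 and -0.47, and those of the other 5 windows were between 0.16 and 1.44. TFEB at Pacs2 was 228 and 444 and TFE3 was 292 and 432, so that WT MITF exceeded both WT columns there. The remaining 2 windows, nearest to Gm26682 and Mir7117, had WT MITF of 78.4 and 59.4 and SgshKO MITF of 261 and 404.

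**Figure D4:**
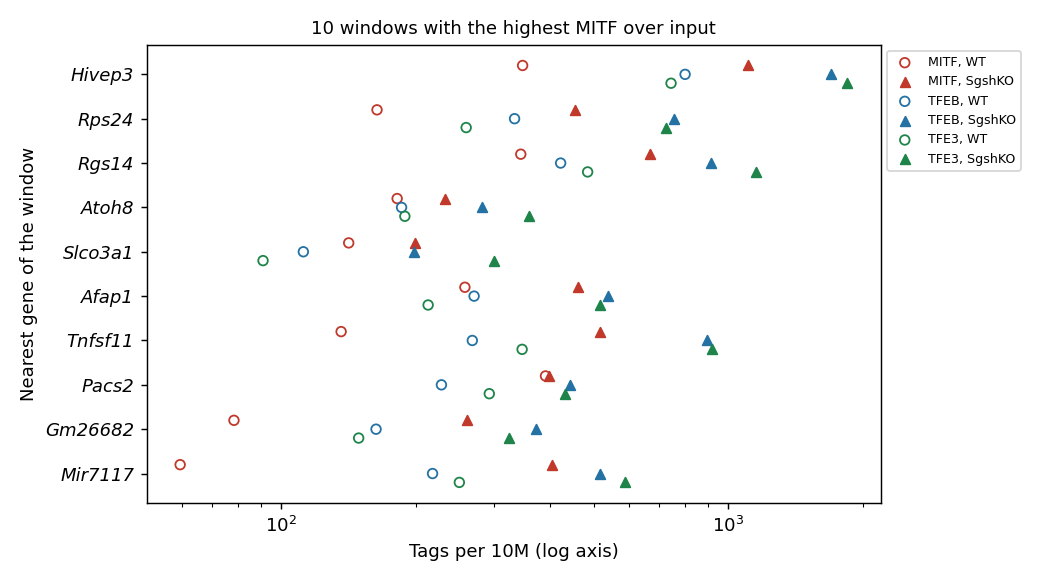
Tags per 10M (log axis) of MITF, TFEB and TFE3 in WT (open circles) and SgshKO (triangles) at the 10 windows with the highest MITF over input, each named by its nearest gene. Values are scaled by library totals, and so scaled the SgshKO pool is the higher in each window and for each factor. Under TMM, MITF was lower in SgshKO at 5 of the 10 windows, those at Rgs14, Atoh8, Slco3a1, Afap1 and Pacs2.

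The window with the most MITF signal in WT lay at the promoter of Atg2a, at -48 bp from its start (chr19:6241520-6241720), whose upstream sequence above holds no CACGTG. It had 1144 tags per 10M in WT (4217 tags, exact Poisson 95% interval 1110 to 1179) and 781 in SgshKO (2013 tags, 747 to 816), over inputs of 5.16 and 12.5. TFEB there was 446 and 1224, and TFE3 was 516 and 1555. MITF was thus the highest factor at Atg2a in WT and the lowest in SgshKO. The next most WT signal was 412 tags per 10M at a window near the end of Tppp3, which encodes a tubulin polymerization-promoting protein. The most SgshKO signal after Hivep3 was 1101 at a window near Mir1191b and 1035 in intron 1 of 2 of Lingo2, where WT MITF was 137 and 86.8.

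Strong binding in both genotypes was shared with the other factors. At least 4-fold over input in each genotype were 9725 windows, nearest to 5842 genes. With at least 20 tags in each pool 7984 windows near 5080 genes remained, and of these 98.3% were TFEB-bound and 98.6% TFE3-bound. Of all windows 57.5% were TFEB-bound and 58.7% TFE3-bound. The 3 factors share each genotype's input, so part of the higher shares at strong windows is fixed by it. Among the genes with the most strong windows, chosen after their values were seen, were Gse1 with 13 of its 151 windows, A230009B12Rik with 12 of 148, Tle3 with 12 of 53, and Iqsec1 and Zfp608 with 10 each. Of all windows 9.67% were strong by this rule, and the shares of Gse1 and A230009B12Rik lay below that. Tle3 encodes a co-repressor of transcription.

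At promoters the gene lists were set beside all 11969 genes with a window within 1 kb of the start, 1 window per gene. Over all of them the median log2 MITF over input was 0.68 in WT and 2.69 in SgshKO, 43.4% were at least 2-fold over input in WT and 78.2% in SgshKO, and 16.9% were at least 4-fold in each. The 4 lysosomal lists together held 96 promoters, with medians of 0.95 and 3.39. Of these, 46 (47.9%) passed 2-fold in WT, 87 (90.6%) passed in SgshKO and 17 (17.7%) were at least 4-fold in each. The WT shares of lysosomal promoters lay near those of all promoters and the SgshKO share lay above. By the mean of both genotypes TFEB bound 88 of the 96 (91.7%) and TFE3 84 (87.5%), against 80.2% and 78.9% of all promoters.

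Among the 9 genes of heparan sulfate degradation, 5 passed 2-fold in WT and 8 in SgshKO, with medians of 2.09 and 3.61. Their median WT MITF signal without input was 4.07 tags per 10M, below the 4.61 of all promoters. At Naglu, MITF was 12.2 tags per 10M in WT and 212 in SgshKO over inputs of 2.10 and 0. TFEB at Naglu was 116 and 251, and TFE3 was 116 and 209, so that MITF was close to TFE3 in SgshKO and lay below both factors in WT. At the Sgsh promoter MITF was 17.9 in WT and 13.2 in SgshKO, over inputs of 0.19 and 0. Sgsh therefore did not share the higher SgshKO level of Naglu. With TMM scaling (given below), 44 of the 96 lysosomal promoters were at least 2-fold higher in SgshKO and 13 were at least 2-fold lower, and of all 11969 promoters 4609 and 2153.

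Lysosomal hydrolases had MITF medians of 0.80 in WT and 3.13 in SgshKO over 38 promoters, and 5 were at least 4-fold in each genotype. Ctsd had 2.98 tags per 10M in WT, under its input of 8.21, and 42.7 in SgshKO over 0.48. Neu1, a sialidase, had 23.9 and 58.2 over inputs of 8.21 and 0. Of the 31 promoters of lysosomal membrane proteins, 7 were at least 4-fold in each genotype. Cd63, a tetraspanin of late endosomes, had the pattern of Naglu, with 15.2 in WT and 244 in SgshKO over inputs of 1.72 and 0. Lamp1, with its 4 E-boxes, had 13.6 in WT against an input of 13.9, and 67.5 in SgshKO against 11.6. Mcoln1, with 2 E-boxes, had 1.09 in WT over 0 and 39.2 in SgshKO over an input of 15.4, so that both genotypes were little more than 2-fold over input. Lamp1 and Mcoln1 thus held several E-boxes with less MITF over input than Cd63 had.

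The proton pump that acidifies lysosomes, the V-ATPase, had the largest SgshKO median of the 4 lysosomal lists, 4.60 over 18 promoters, all 18 past 2-fold. In WT its median was 1.02 and 9 passed. The SgshKO medians of TFEB and TFE3 at these promoters were near that of MITF, at 4.55 and 4.23. Atp6v1g1 and Atp6v1d, subunits of the soluble part of the pump, had SgshKO MITF of 183 and 143 tags per 10M. In WT they had 0.54 and 19.3 over inputs of 4.01 and 4.78.

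Genes of mTORC1, the Rag GTPases and folliculin had MITF in both genotypes more often than promoters at large. Of 25 promoters 9 (36.0%) were at least 4-fold in each, 16 passed 2-fold in WT and 23 in SgshKO, and the medians were 1.70 and 3.51. By the mean of both genotypes 21 of the 25 were MITF-bound, 24 TFEB-bound and 23 TFE3-bound. MITF at Rragc was 9.22 in WT and 76.0 in SgshKO, with 0 input in both. Lamtor1, the anchor of the Ragulator complex on the lysosome, had 56.7 and 166 over inputs of 9.55 and 9.63. Sesn3, a sestrin that restrains mTORC1, had 68.1 and 83.8 over 1.15 and 0. Fnip1 had 11.7 and 62.5 and Fnip2 had 27.1 and 99.7, whereas Flcn itself had 1.09 in WT under an input of 6.88 and 44.2 in SgshKO over 14.4. The folliculin partners therefore had more MITF over input than folliculin in both genotypes. Rragd, a direct target of these factors in other cells, had no window in this table.

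Autophagy promoters did not stand apart as a group. The medians over 46 promoters were 0.53 and 3.02, and 10 were at least 4-fold in each genotype. Wipi1, a phosphoinositide-binding protein of early autophagosomes, had 132 in WT and 79.9 in SgshKO over inputs of 5.73 and 10.11. As at Atg2a, WT MITF at Wipi1 exceeded WT TFEB (63.8) and WT TFE3 (38.1). Map1lc3b, whose stretch above holds no E-box, had 59.4 and 165 over inputs of 10.3 and 24.6. MITF signal was also present at the promoters of the family itself. Tfeb had 31.5 in WT and 70.2 in SgshKO, Tfe3 had 3.53 and 35.7, and Mitf had 2.17, under its input of 3.63, and 62.8. Of all windows nearest to these genes, 24 of 76 were bound at Tfeb, 11 of 21 at Mitf and 1 of 1 at Tfe3. Together 36 of 98 (36.7%) were bound, below the 50.0% of all windows.

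The pigment genes for which MITF is known in melanocytes had a promoter window in some cases, and MITF there ranged from absent to strong. Of 17 such genes 7 had a promoter window, with medians of -0.19 in WT and 2.11 in SgshKO. Of the 7, 2 passed 2-fold in WT and 6 in SgshKO, and 2 were at least 4-fold in each genotype. These were Myo5a, a myosin that carries pigment granules, with 16.8 in WT and 17.8 in SgshKO over inputs of 0 and 3.37, and Dct, an enzyme of melanin synthesis. Dct had 26.9 in WT and 63.2 in SgshKO over inputs of 1.53 and 0, and TFEB there was 44.3 and 138. Pmel had 0 and 9.31, and Tyr had no window. Other genes reported as MITF targets outside pigment had medians of 0.51 and 2.79 over 12 promoters, 1 of them at least 4-fold in each.

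Promoters of oligodendrocyte and myelin genes held MITF in both genotypes most often among the lists with over 10 promoters. Of 36, 16 (44.4%) were at least 4-fold in each genotype, 24 passed 2-fold in WT and 35 in SgshKO, and the medians were 2.10 and 3.32. These promoters were not particular to MITF: by the mean of both genotypes 31 were MITF-bound, 34 TFEB-bound and 33 TFE3-bound. Over all windows of these genes, promoter and distal, 370 of 985 (37.6%) were MITF-bound, below the 50.0% of all windows. The part of accessibility in these counts was not tested. Trf, which encodes transferrin, had 149 in WT and 145 in SgshKO over inputs of 7.83 and 12.03. Mobp, a structural myelin protein, had 128 and 68.7. The lineage factors Olig1 and Olig2 had 44.8 and 227, and 55.3 and 140. Opalin had 36.1 and 182, Hapln2, a protein of the node of Ranvier, had 39.1 and 150, and Fa2h, the enzyme that hydroxylates myelin lipids, had 14.1 and 295. Trf and Mobp therefore had as much or more MITF in WT, and the others had more in SgshKO, by library totals. The promoter of Mbp, a main myelin protein, had no MITF tag in WT and 1.16 tags per 10M in SgshKO. Of the 122 windows nearest to Mbp 33 were bound, a share below the 50.0% of all windows.

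Lists of other processes lay on both sides of the promoters at large. Cholesterol synthesis had medians of 1.51 and 3.06 over 20 promoters with 4 at least 4-fold in each, and clock genes 1.36 and 3.05 over 15 with 5. Precursor genes had 1.46 and 3.80 over 14 with 3. The integrated stress response had 0.42 and 2.96 over 15 with 0, and glycolysis had 0.05 and 2.59 over 19 with 2. Markers of other brain cells had few promoter windows: 5 of 16 neuronal genes, 5 of 13 astrocyte genes, 1 of 16 microglial genes and 1 of 10 endothelial genes. The microglial window, at Sall1, had MITF of 0.81 in WT and 0.78 in SgshKO, under input in both.

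**Figure D5:**
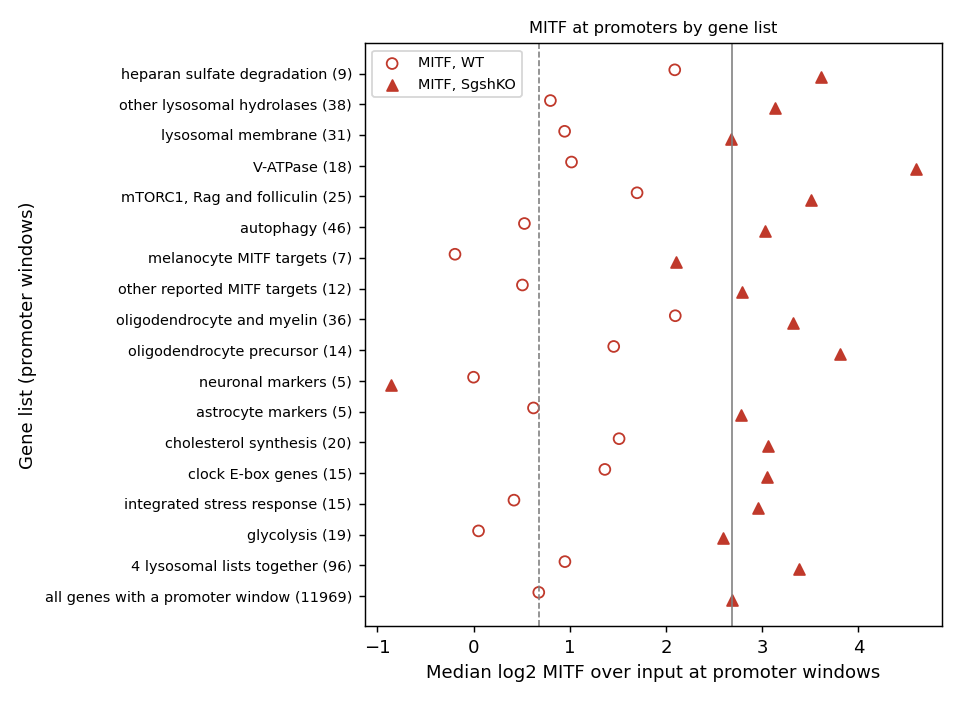
Median log2 MITF over input at promoter windows for each gene list, open circles for WT and triangles for SgshKO, with the number of promoters in brackets. The grey lines mark all 11969 promoters (dashed WT, 0.68, and solid SgshKO, 2.69). Lists with under 5 promoter windows are not drawn. Of those drawn, the myelin and heparan sulfate lists lie farthest right in WT and the V-ATPase list in SgshKO.

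The difference in MITF between SgshKO and WT depended on how the pools were scaled. With TMM scaling, which takes most windows as unchanged, 13881 bound windows (33.6%) were at least 2-fold higher in SgshKO and 9941 (24.1%) were at least 2-fold lower, and the median log2 difference was 0.26. Over all windows 31.9% were higher and 27.1% lower, with a median of 0.11. With the library totals in place of TMM, 24753 bound windows were higher and 3860 lower, with a median of 1.43 at bound windows and 1.11 at all windows. Of the windows that differed by 2-fold, 58.3% were higher under TMM and 86.5% under library totals. The bound windows lay above the shift of all windows by a small part of a doubling under each scaling. They were chosen by the same 2 MITF columns, so part of this excess is fixed by that choice. TFEB at the same windows was 2-fold higher in 5892 windows (14.3%) and lower in 9903 under TMM, and TFE3 in 5785 and 8410. Under library totals the balance turned, to 12531 higher and 7479 lower for TFEB and to 17064 and 4754 for TFE3. Under both scalings the MITF pools differed by 2-fold at more windows than the TFEB or TFE3 pools did.

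The bound windows with more MITF in SgshKO also held the other factors more often. Neither TFEB nor TFE3 bound 3.05% of the windows with higher MITF in SgshKO and 17.1% of those with lower, against 7.89% of all MITF-bound windows. The bound calls of the 3 factors share each genotype's input, so part of this contrast is fixed by it. The promoter of Tmem86a, a lysoplasmalogenase, had no MITF tag in WT and 170 tags per 10M in SgshKO (439 tags), which is at least 84.2-fold higher under TMM and 209-fold under totals, against the 3 tags that a count of 0 allows. Yet Tmem86a had WT TFEB of 76.7 and WT TFE3 of 99.6. The same arrangement was found at an intergenic window near Pknox1, with MITF of 0 and 152, in intron 2 of 3 of Vps37c, with 0 and 103, and at a window near Mir204, with 0 and 95.4. In all 4 windows the WT TFEB and TFE3 columns were between 38.6 and 99.6 while WT MITF held no tag.

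Of the windows with lower MITF in SgshKO, 68.7% were TFEB-bound and 71.0% TFE3-bound, but the 4 with the largest difference had little of either in WT. A window at -534 bp from the start of Atg2a, beside the promoter window above, had MITF of 319 in WT (1177 tags) and 4.66 in SgshKO (12 tags), a log2 difference of -7.08 under TMM and -5.82 under totals, over inputs of 20.3 and 5.29. WT TFEB there was 13.1 and WT TFE3 was 9.19, both below the input. Windows near Rps28, Fam107b and Nae1 had WT MITF of 57.2, 47.8 and 34.2 and no SgshKO tag, at least 122-fold, 102-fold and 73.0-fold lower under TMM and 49.2-fold, 41.0-fold and 29.4-fold under totals. WT TFEB and TFE3 at these 3 windows were between 1.09 and 7.66. With 1 pool for each genotype, a difference of the mice and a difference of the pools cannot be told apart.

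MITF, TFEB and TFE3 occupied largely the same windows. TFEB bound 47485 windows (57.5%) and TFE3 48449 (58.7%) by the same rule. Of the MITF-bound windows 84.0% were TFEB-bound, which is 73.1% of the TFEB-bound ones, and 85.2% were TFE3-bound, which is 72.6% of the TFE3-bound ones. The 3 factors share each genotype's input, so part of each overlap is fixed by it. Neither other factor bound 3258 MITF-bound windows. With TMM scaling the median log2 of MITF over TFEB at windows bound by at least 1 factor was -0.22, and over TFE3 it was -0.22. In WT these medians were -0.43 and -0.43, and in SgshKO they were 0 and 0. TMM takes most windows as unchanged between columns, so medians near 0 are partly fixed by the scaling and do not show equal levels.

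Some windows set MITF apart from the other factors. Among the 59470 windows bound by at least 1 factor, MITF was at least 2-fold over both TFEB and TFE3 in 4905 (8.25%) and at least 2-fold under both in 7923 (13.3%), as means of the genotypes. The windows over both had a median of 39 MITF tags in the WT pool and 20 in the SgshKO pool, against 25 and 44 at MITF-bound windows. In each genotype separately the same held at 1362 and 987 windows, so that over outnumbered under by that rule. In WT alone 8594 were over and 17256 under, and in SgshKO alone 5141 and 3814. The windows furthest over the other factors, at Apool, Gm41289, B4galt5 and Ubtf, had WT MITF of only 13.8 to 35.5 tags per 10M and SgshKO MITF of 3.10 to 8.53. Those furthest under were the promoter of Ncoa2, a nuclear receptor coactivator, with MITF of 0.27 and 0.39 against TFEB of 11.4 and 45.1, and windows near Gnpda1, Arih1 and Tmod1. At Tmod1, a cap of actin filaments, WT MITF was 0 and SgshKO MITF 32.2 while TFEB was 72.7 and 116.

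The E-box was only slightly more frequent where MITF was bound. In the 4448 windows whose whole sequence lay between 250 bases before and 50 bases after a RefSeq start, CACGTG (a palindrome, so both strands are searched at once) was found in 375, or 8.43% (95% Wilson interval 7.65 to 9.28). Of the MITF-bound ones 285 of 3256, or 8.75% (7.83 to 9.77), held it, and of those at 8-fold or more 101 of 991, or 10.2% (8.46 to 12.2). The intervals overlap. The CLEAR-type letters GTCACGTG, searched on both strands and always holding the E-box, were in 4.32% of all covered windows, 4.51% of bound ones and 5.75% of those at 8-fold or more. TCATGTGA, a form of the melanocyte M-box, was in 0.585% and 0.614%. The GC box GGGCGG, in contrast, was in 69.0% of all covered windows and 72.5% of those at 8-fold or more, and CCAAT was in 39.4% and 39.3%.

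MITF signal was also nearly the same with and without the motif. The median log2 MITF over input was 1.96 in the windows with CACGTG and 1.90 in those without, 0.92 and 0.81 in WT and 3.09 and 3.00 in SgshKO. For TFEB the medians were 3.11 with and 2.71 without, and for TFE3 2.65 and 2.56. Windows where MITF was 2-fold over both other factors held the E-box in 4 of 154 (2.60%, interval 1.01 to 6.49), and those where it was 2-fold under both in 34 of 548 (6.20%, 4.47 to 8.54), both below the share of all covered windows. Bound windows with higher MITF in SgshKO held it in 123 of 1237 (9.94%, 8.40 to 11.7) and those with lower MITF in 35 of 486 (7.20%, 5.22 to 9.85). Only promoter windows were covered by sequence, so these shares say nothing of the distal windows where MITF was strongest.

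H3K27 acetylation of the sorted nuclei was measured in WT and SgshKO mice at 4 and 8 months with 2 libraries per group. It was called different between genotypes at few of the MITF-bound windows. At 4 months 160 of 78443 tested windows (0.204%) passed limma's test at an FDR of 0.05, 79 higher and 81 lower in SgshKO, and 89 of the 40299 tested MITF-bound windows (0.221%) did, 49 higher and 40 lower. Scaled by library totals, 62 windows were called, 6 higher and 56 lower. At 8 months 7 windows (0.00892%) passed, 5 higher and 2 lower, of which 5 were MITF-bound (0.0124%). The count at 4 months rests on single libraries: without the first or second WT library it was 2188 or 837, and without the first or second SgshKO library 11 or 20. At 8 months the count also changed with the library that was left out. The second SgshKO library at 4 months had 29.2% of its tags in windows, against 43.2% to 47.3% of the other libraries of that age. At the windows with 2-fold more MITF in SgshKO the median log2 acetylation difference was 0.03 at 4 months and 0.01 at 8 months, and at those with 2-fold less it was 0.02 and 0.00.

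The called windows named here are among those with the lowest adjusted p and were picked after their values were seen. Those at Npsr1, Fgfrl1 and Kifc3 had over 20 MITF tags per 10M in both genotypes. At a window in intron 3 of 9 of Npsr1, with MITF of 52.1 in WT and 216 in SgshKO, acetylation at 8 months was 548 and 543 tags per 10M in the WT libraries and 293 and 346 in the SgshKO libraries. It fell by 0.77 on the log2 scale (limma, Benjamini-Hochberg adjusted p = 0.0017), and the groups did not overlap. At 4 months the Npsr1 libraries overlapped, with 614 and 568 in WT and 627 and 534 in SgshKO. A window in intron 2 of 5 of Fgfrl1, a receptor of the FGF family without a kinase domain, had MITF of 28.5 and 84.2. Its acetylation at 4 months rose by 1.22 (limma adjusted p = 0.00174), from 49.9 and 50.2 to 131 and 106. At 8 months the Fgfrl1 window had 95.3 and 94.8 in WT and 98.9 and 127 in SgshKO. The promoter of C4b, a complement component, had little MITF, 1.09 and 7.37, and its acetylation at 8 months rose by 1.63 (limma adjusted p = 0.00623), from 38.3 and 45.7 to 130 and 134. A window nearest to Lactbl1, with MITF of 8.95 and 5.43, rose at both ages, by 1.18 at 4 months (limma adjusted p = 0.000119) and by 1.13 at 8 months (limma adjusted p = 0.0017). All of these calls were lost without the first SgshKO library of their age, with limma adjusted p of 0.234 at Fgfrl1, 0.0796 and 0.478 at Lactbl1, and 1 at Npsr1 and C4b. At 8 months they were also lost without the second SgshKO library at C4b (0.743) and Lactbl1 (0.248), without the first WT library at Npsr1 (0.454) and C4b (0.638), and without the second WT library at Lactbl1 (0.108). Scaled by library totals none was called, with adjusted p of 0.396 at Fgfrl1, 0.398 and 1 at Lactbl1, 1 at Npsr1 and 0.103 at C4b.

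The largest acetylation differences at bound windows came from an X-linked gene and did not follow genotype alone. A window in intron 5 of 19 of Firre, a long noncoding RNA gene, had 154 and 156 tags per 10M in WT and 8.50 and 9.55 in SgshKO at 4 months, a fall of 3.96 (limma adjusted p = 6.27e-05, and 0.0796 or 0.0511 without the first or second SgshKO library and 0.126 with DESeq2). At 8 months WT had 6.95 and 135 and SgshKO had 117 and 117. The first WT library at 8 months was thus as low as the SgshKO libraries at 4 months. MITF at this Firre window was 2.17 and 1.94. Of the 160 windows called at 4 months 31 lay on the X chromosome, 7 of them MITF-bound. With edgeR it was 25 of 79 called windows and with DESeq2 3 of 128. The share of tested windows on that chromosome was not computed, so an excess cannot be read from these counts.

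MITF was also measured in PU.1+ microglial nuclei of the same genotypes, in a separate table with its own windows and inputs, normalized separately. Within 100 bp of a microglial window lay 31.2% of the MITF-bound windows here and 22.4% of the others. Of those matched, 51.9% of the bound and 32.4% of the others were MITF-bound in microglia too. Among MITF-bound windows 67.2% of those near a start had a microglial match and 16.3% of the distal ones did. The match of distal windows not bound by MITF was not computed, so the 16.3% cannot be read as a trait of MITF binding.

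The gene lists ranked differently in the 2 kinds of nuclei, with levels that cannot be set against each other across tables. In microglia 81 of 98 lysosomal promoters (82.7%) were MITF-bound, against 50.8% of all promoters there. In oligodendrocyte nuclei 74 of 96 (77.1%) were bound, against 68.0% of all promoters. For oligodendrocyte and myelin genes the microglial count was 8 of 19 (42.1%) and the oligodendrocyte count 31 of 36 (86.1%). Naglu was high in both, with microglial MITF of 313 in WT and 419 in SgshKO. Olig1 and Wipi1 had no MITF tag in either microglial pool. The difference of the lists between the cell types was not tested.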

How the data were processed

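Values are the deposited signal, which the authors gave as tags in 200 bp windows per 10M tags of each merged pool, per the file headers. Bowtie2, HOMER, DESeq2 and mm10 are named without role or version in the submitters' processing notes. Multiplying by the total returned whole tags for 100% of low values in the factor columns. In the 8-month H3K27ac columns only 53.6% to 56.6% came out whole, and these were rounded. All analysis of binding was on log2((ChIP + 1)/(input + 1)) per genotype, with a window bound at a mean of 1 or more. MITF pools, and MITF with TFEB or TFE3, were compared after TMM scaling (edgeR 4.0.16). Window coordinates are those of the deposited table, and each window takes its nearest gene and annotation from it.

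H3K27ac was tested with limma 3.58.1 (mean trend, log2 of TMM-scaled tags per 10M + 1, low windows left out by filterByExpr, two-sided, Benjamini-Hochberg FDR below 0.05) over 8 libraries as 4 groups of 2. On simulated data with the spread of these libraries, the test missed part of the changed windows and made some false calls. Few calls therefore do not show that the other windows were unchanged. The labels do not say that libraries of a group came from separate animals, so the p-values measure the spread between these libraries. The count tests were run as alternatives because the deposited unit is a signal. R was 4.3.3, DESeq2 1.42.0, Python 3.11.15, pandas 2.3.3 and SciPy 1.17.1. Promoter sequences came from RefSeq.

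The windows, the gene lists (409 genes in 19 lists) and the tests were chosen with earlier results of these data known. Named windows are the 10 highest by MITF over input with at least 30 tags in each genotype, at most 1 per gene and outside the top 1% of input. To these were added the 4 with the largest and the 4 with the smallest genotype difference, the same for MITF against TFEB and TFE3, and the listed genes, each by its window nearest the start. Windows named for the most signal in 1 pool, and those named for H3K27ac, were picked after their values were seen. Of the 409 genes 48 had no window. Microglial and neuronal H3K27ac were not used here.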

Additional observations from a re-analysis of the deposited data

How the results depend on the processing

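Library totals in place of TMM turned the balance of genotype differences for TFEB and TFE3 at MITF-bound windows, and the median H3K27ac difference at 4 months was 0.02 with TMM and -0.20 with totals. The count of MITF-bound windows was 24550 with a pseudocount of 5, 21215 with 2-fold required in each genotype, 21695 with each column centred on its median window and 18638 with at least 20 MITF tags in each genotype. In the same order the share within 1 kb of a start was 31.8%, 30.0%, 30.7% and 32.9%, the share also TFEB-bound 85.5%, 77.2%, 78.3% and 92.5%, and the share also TFE3-bound 85.9%, 77.2%, 76.5% and 92.7%. At a 3-fold threshold these 3 shares were 30.4%, 83.0% and 84.3%. By the WT pool alone they were 28.3%, 80.0% and 76.6%, and by the SgshKO pool alone 27.4%, 78.4% and 83.2%, both alternatives chosen after seeing the data. The E-box share of bound windows stayed between 8.58% and 9.37% under all alternatives run.

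The genotype counts moved with scaling: 24753 higher, 3860 lower and a median of 1.43 under library totals, and 27325, 4653 and 2.02 from the difference of ChIP over input. MITF over and under both TFEB and TFE3 was found at 2348 and 14559 windows under library totals, 2126 and 2753 with a pseudocount of 5, 1362 and 987 in each genotype, 8594 and 17256 in the WT pool alone, and 3814 under in the SgshKO pool alone. The causes were not tested. Of 78 named windows, 15 moved past the counting interval with the mean of both inputs, 48 with a pseudocount of 5 and 78 with centring.

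H3K27ac calls at 4 months numbered 62 with library totals and 79 with edgeR, and 11 to 2188 with 1 library left out, and at 8 months 13 with library totals and 22 with DESeq2, and 0 to 32 with 1 library left out. With a replicate block 163 and 7 windows were called. Deviations of same-numbered libraries correlated at -0.009 at 4 months and -0.015 at 8 months, so that the numbers do not pair them. Thin SgshKO input limits every value over it.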

Other observations

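At 3 windows MITF in the WT pool was far above all other columns. They were chosen after their values were seen, as those with the most WT MITF against WT TFEB and TFE3 among windows with at least 100 WT tags. At the promoter of the histone gene Hist2h2aa1, whose copies are nearly identical so that its tags are uncertain, WT MITF was 29.8 tags per 10M, while SgshKO MITF, TFEB, TFE3 and both inputs were at 0. At the promoter of Ppm1k, a mitochondrial phosphatase, WT MITF was 37.7 and WT TFEB and TFE3 were 0.57 and 0.66. In intron 6 of 14 of Ankrd13a WT MITF was 105 and WT TFEB and TFE3 were 5.87 and 1.75, with SgshKO MITF of 4.66.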
